A study of Sus scrofa with 6 samples.

Results

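Small leucine-rich proteoglycans are secreted matrix proteins with a core of leucine-rich repeats. They bind collagen fibrils and set how these assemble and pack, and several of them also bind TGF-beta or cell surface receptors. In skeletal muscle they are made mainly by the fibroblasts and fibro-adipogenic progenitors of the connective tissue around the fibres, cells that are recognised by the receptor PDGFRA. The genes described here are 7 proteoglycan genes (*DCN*, *LUM*, *BGN*, *FMOD*, *OGN*, *ASPN* and *PRELP*) and 3 genes of fibroblast identity (*PDGFRA*, *PDGFRL* and *FAP*). They were taken by pig Ensembl symbol, and all 10 were found among the 30476 genes counted, under the identifiers ENSSSCG00000000915 (*DCN*), ENSSSCG00000000916 (*LUM*), ENSSSCG00000012766 (*BGN*), ENSSSCG00000015270 (*FMOD*), ENSSSCG00000034607 (*OGN*), ENSSSCG00000008072 (*ASPN*), ENSSSCG00000015271 (*PRELP*), ENSSSCG00000008841 (*PDGFRA*), ENSSSCG00000006988 (*PDGFRL*) and ENSSSCG00000015896 (*FAP*).

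The counts came from the longissimus dorsi, a back muscle, of 3 adipocyte-specific UCP1 KI pigs and 3 WT pigs, all 6 months of age and with 1 library per pig. UCP1 is the uncoupling protein of brown fat. The pigs were made by CRISPR/Cas9 with site-specific integration, and the labelled cell type of the KI is the adipocyte, not the muscle fibre or the fibroblast. No identifier carried the symbol *UCP1*, and the genotype was not checked. The study detected no *UCP1* mRNA in the muscle of either genotype, so muscle counts of *UCP1* could not have served as a check. Total counts on genes ranged from 30220951 to 35066624 per pig. WT replicate 2 stood apart, with 56.5% of its counts on its 20 most abundant genes, against 39.0% to 44.8% in the other pigs. Markers of muscle fibres were high in every pig, with *ACTA1*, *CKM*, *TNNT3* and *TNNI2* summing to between 50846 and 109748 CPM (a gene's reads scaled to a common library total with TMM factors). In whole muscle, fewer fibroblasts and less RNA per fibroblast cannot be told apart.

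All 10 genes passed the filter on low counts. Of these, 7 (*OGN*, *FMOD*, *BGN*, *FAP*, *ASPN*, *PDGFRL* and *LUM*) were lower in UCP1 KI pigs past both limits. The limits were p below 0.05 before adjustment and a log2 fold change of more than 0.5 in size. Both values follow the study, which does not say whether its p was adjusted. *DCN*, *PRELP* and *PDGFRA* did not pass. The log2 fold change was negative for each of the 10 genes, although that of *PDGFRA* turned positive with library size only. Among the 13402 genes tested, 4.34% were lower past both limits and 8.19% passed them in either direction. The median log2 fold change was -0.89 over the 10 genes and -0.02 over all genes tested. After Benjamini-Hochberg adjustment over all genes, edgeR gave 0 of the 10 genes an adjusted p under 0.05 (7 had an unadjusted p under 0.05), while DESeq2 gave 1, *OGN*. The number past both limits was 2 with library size only. Leaving out single pigs gave 1 to 6, the fewest without WT replicate 1 and the most without WT replicate 3. The median over the 10 genes then ranged from -0.97 without WT replicate 3 to -0.69 without UCP1 KI replicate 2. It was -0.72 without WT replicate 1 and -0.78 without WT replicate 2.

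**Figure D1:**
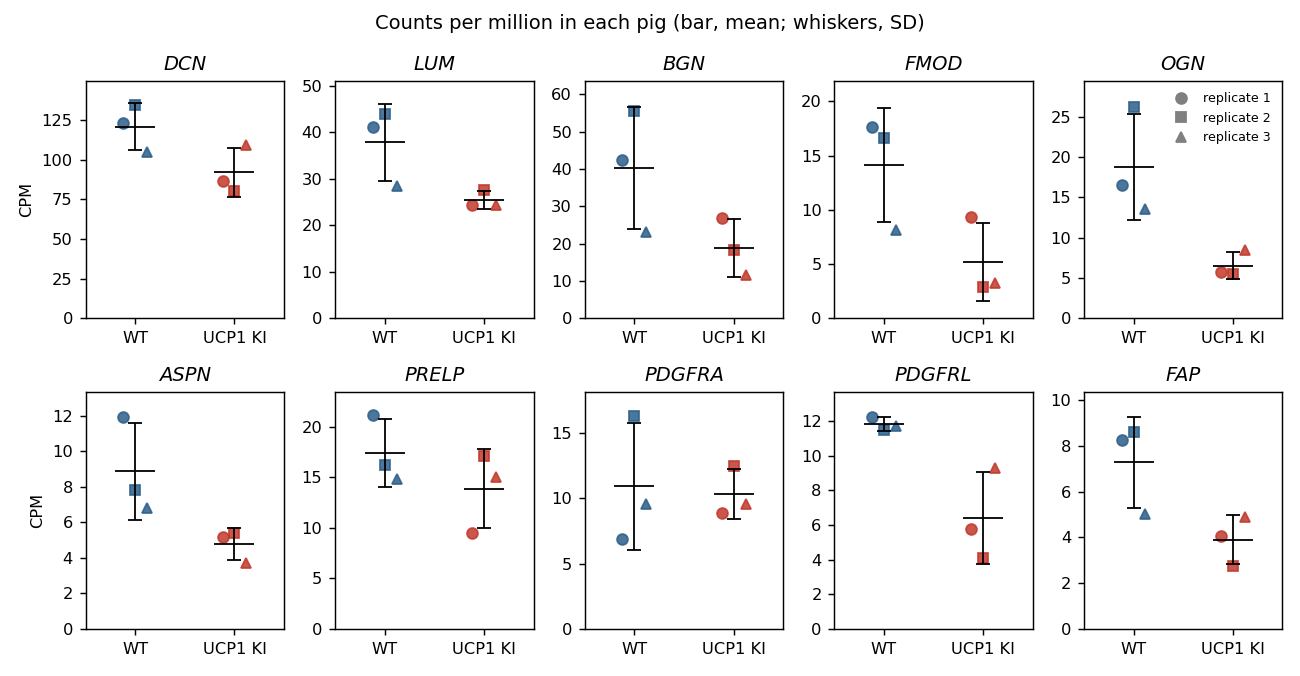
Expression of the 10 genes in each pig, in CPM on a linear axis from 0, with WT pigs in blue and UCP1 KI pigs in red; horizontal bars are means, whiskers are SD (n = 3) and marker shapes are replicate numbers, which do not pair pigs. The groups do not overlap for *LUM*, *OGN*, *ASPN*, *PDGFRL* and *FAP*, whereas *PDGFRA* spans 6.89 to 16.3 CPM in WT pigs and encloses the UCP1 KI pigs.

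The counts behind these values ranged from 98 for *FAP* in UCP1 KI replicate 2 to 4478 for *DCN* in WT replicate 1. Counting error alone is 10.1% of the value at 98 counts, while the SD between pigs of *FAP* was 27.5% of the mean in the UCP1 KI group and 27.3% in the WT group. Every KI pig lay below every WT pig for 5 of the 10 genes, and 7.69% of all genes tested did so.

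*OGN*, which encodes osteoglycin (mimecan), a proteoglycan that regulates collagen fibril formation, had the lowest p of the 10 genes in the fit of all 6 pigs on genotype alone. It was measured at 5.69, 5.47 and 8.45 CPM in UCP1 KI replicates 1 to 3 and at 16.5, 26.2 and 13.6 CPM in WT replicates 1 to 3. The highest UCP1 KI pig was thus below the lowest WT pig, and the WT pigs were 2.87-fold higher in the fit. On the log2 scale the change was -1.52, with a standard error of 0.34 and a 95% interval of -2.30 to -0.74. *OGN* was followed by *FMOD*, at -1.46, which had the larger change in 5 of the 12 alternative fits. For *OGN* the unadjusted p from edgeR was 0.00214 and the adjusted p was 0.481, while DESeq2 gave an adjusted p of 0.011. Of the 10 genes, *OGN* was the one past both limits in each of the 6 fits that left out a pig, with log2 fold changes of -1.75 to -1.20, and it passed in each of the other 6 alternatives.

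*ASPN* encodes asporin, a relative of decorin that binds collagen and TGF-beta and lacks a glycosaminoglycan attachment site. It was at 5.21, 5.41 and 3.73 CPM in UCP1 KI pigs and 11.96, 7.85 and 6.81 CPM in WT pigs. The groups were separate, with WT replicate 1 well above the other WT pigs. *ASPN* changed by -0.89 on the log2 scale (standard error 0.31, unadjusted p = 0.0230 and adjusted p = 0.583 from edgeR). Without WT replicate 1 it was -0.62, and *ASPN* was past the limits neither then nor without UCP1 KI replicate 3 (-0.75).

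Biglycan (*BGN*), decorin's closest relative, carries chondroitin or dermatan sulphate chains. It was at 26.9, 18.3 and 11.5 CPM in UCP1 KI pigs and 42.3, 55.5 and 23.0 CPM in WT pigs. UCP1 KI replicate 1 was above WT replicate 3, so the groups overlapped. *BGN* changed by -1.09 on the log2 scale (standard error 0.42, unadjusted p = 0.0318 and adjusted p = 0.586 from edgeR). Without WT replicate 2 it was -0.79, and without UCP1 KI replicate 3 it was -0.84, and *BGN* did not pass in either fit or without UCP1 KI replicate 2 or WT replicate 1.

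Decorin (*DCN*), which binds collagen fibrils and TGF-beta, was counted most often of the 10 genes. It was at 86.8, 80.1 and 109.6 CPM in UCP1 KI pigs and 123, 134 and 105 CPM in WT pigs. UCP1 KI replicate 3 lay above WT replicate 3, and the other UCP1 KI pigs lay below all WT pigs. Its log2 fold change, -0.39 (standard error 0.24), had a 95% interval of -0.94 to 0.16 and an unadjusted p of 0.139 from edgeR. *DCN* passed both limits in none of the 12 alternative fits, which gave -0.54 to -0.13.

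Among the keratan sulphate proteoglycans, *FMOD* (fibromodulin), which binds fibrillar collagen and is abundant in tendon, was at 9.31, 2.89 and 3.26 CPM in UCP1 KI pigs and 17.6, 16.6 and 8.11 CPM in WT pigs. UCP1 KI replicate 1 stood above the other UCP1 KI pigs and above WT replicate 3. *FMOD* changed by -1.46 on the log2 scale, with a wide 95% interval of -2.68 to -0.23 and an unadjusted p of 0.0256 and adjusted p of 0.583 from edgeR. Without UCP1 KI replicate 1 it was -2.19, and *FMOD* did not pass the limits after removal of either other UCP1 KI pig or of WT replicates 1 or 2, which gave -1.32 to -1.17.

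Lumican (*LUM*), which regulates fibril spacing, was at 24.4, 27.6 and 24.3 CPM in UCP1 KI pigs, a narrow range, and at 41.1, 43.9 and 28.5 CPM in WT pigs. All UCP1 KI pigs were lower than all WT pigs, by a small margin for WT replicate 3. *LUM*, at a log2 fold change of -0.57 (standard error 0.24), was just past the limits, with an unadjusted p of 0.0465 and an adjusted p of 0.605 from edgeR. It was lost without any pig except WT replicate 3, and was -0.45 without WT replicate 2. With library size only it was -0.31.

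*PRELP*, whose product binds collagen and the basement membrane proteoglycan perlecan, was at 9.51, 17.1 and 15.1 CPM in UCP1 KI pigs and 21.2, 16.3 and 14.8 CPM in WT pigs. The groups overlapped. Its log2 fold change was -0.33, with a 95% interval of -1.01 to 0.36 and an unadjusted p of 0.304 from edgeR. It was -0.11 without UCP1 KI replicate 1, -0.17 without WT replicate 1, -0.52 without UCP1 KI replicate 2 and -0.06 with library size only.

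The proteoglycan genes lie in clusters of neighbours in the assembly Sscrofa11.1, which the submitters' processing notes name and whose RefSeq positions are used here. *DCN* (chr5:91678601-91713925) and *LUM* (chr5:91748871-91756381) are followed by *KERA* and *EPYC*, *OGN* (chr3:42116521-42135940) by *OMD*, *ASPN* (chr3:42165553-42192902) and *ECM2*, and *FMOD* (chr9:64062995-64073853) by *PRELP* (chr9:64190978-64207008) and *OPTC*, with 0 other protein-coding genes between the members of each cluster. *BGN* lies alone at chrX:124282048-124295450. Whether neighbours changed unequally was tested with the ratio of their counts within each pig, on the log2 scale. The difference between the groups in this ratio, UCP1 KI minus WT, was -0.15 for *LUM* to *DCN* (exact permutation p = 0.7), -0.63 for *OGN* to *ASPN* (exact permutation p = 0.3) and -1.24 for *FMOD* to *PRELP* (exact permutation p = 0.3). The groups overlapped for all 3 ratios. With 3 pigs against 3 the smallest p this test allows is 0.1, so it could not have reached 0.05 for any of them, and unequal change of neighbours was neither shown nor excluded. In the chromosome 5 cluster *KERA* (keratocan) was at -0.86 and did not pass (unadjusted p = 0.111 from edgeR), with 20 to 65 counts per pig. In the chromosome 3 cluster *OGN*, *ASPN* and *ECM2* were lower past both limits, while *OMD*, which lies between *OGN* and *ASPN*, had a log2 fold change of -0.16 (unadjusted p = 0.677 from edgeR) that was positive with library size only (0.15) and after removal of UCP1 KI replicate 1 (0.09) or of WT replicate 2 (0.07). *OMD*, or osteomodulin, was at 3.40, 7.15 and 5.77 CPM in UCP1 KI pigs and 6.15, 7.92 and 4.205 CPM in WT pigs, and the groups overlapped. *ECM2*, a matrix protein with leucine-rich repeats, was at 11.06, 16.3 and 12.3 CPM and at 25.6, 23.7 and 16.5 CPM, with no overlap and a log2 fold change of -0.73 (unadjusted p = 0.0304 from edgeR). It was at -0.46 and not past the limits with library size only, and was lost after removal of UCP1 KI replicates 1 or 3 or of WT replicates 1 or 2.

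**Figure D2:**
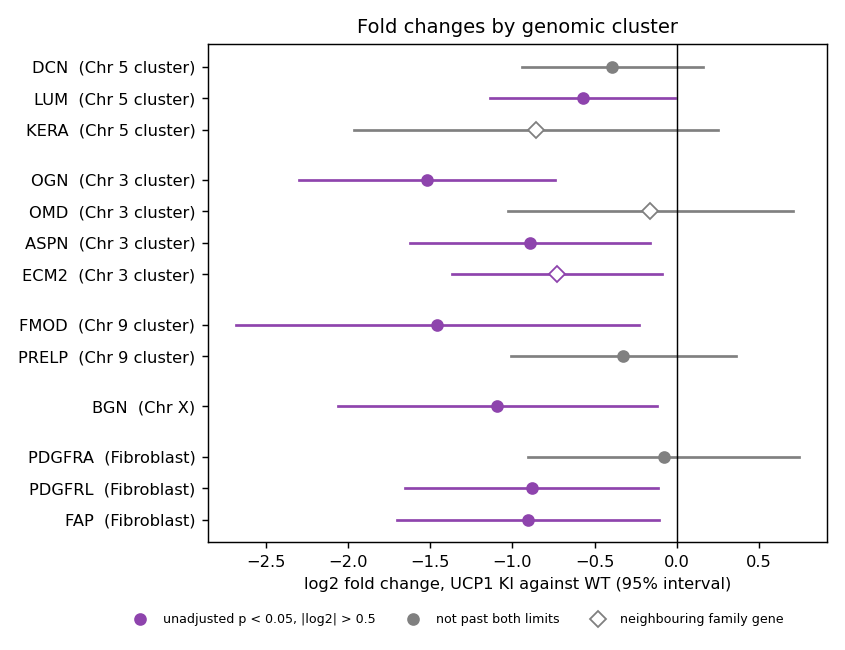
Log2 fold change of UCP1 KI against WT pigs (x axis) with 95% intervals from edgeR, for the 10 genes (circles) and 3 neighbouring family genes (diamonds), ordered by position within each cluster; purple marks genes past both limits. *OGN* and *FMOD* lie farthest to the left in this fit, at -1.52 and -1.46, and *PDGFRA* lies at -0.08, a value that is positive (0.25) with library size only.

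Of 11 further genes of the family, taken by role, 8 could be tested and 1 (*ECM2*) passed both limits. Of the 8 log2 fold changes 6 were negative and 2 positive, *TSKU* at 1.12 and *PODNL1* at 0.94, neither past both limits. The median log2 fold change of the 8 genes was -0.24, and it was -0.05 with library size only and -0.42 without WT replicate 2. Podocan (*PODN*), the most abundant of them, averaged 54.3 ± 7.79 CPM (SD, n = 3) in the WT group against 49.3 ± 8.83 CPM (SD, n = 3) in the UCP1 KI group. Its change was -0.14 on the log2 scale, with a standard error of 0.24, and 0.11 with library size only, and single pigs left out gave -0.29 to -0.03. *EPYC* and *OPTC*, proteoglycans of cartilage and eye, had 0 counts in all 6 pigs.

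To compare the genes without any scaling between libraries, the counts of the 7 proteoglycans were taken as shares of their sum in each pig. *OGN* held 3.39%, 3.49% and 4.80% of this sum in the UCP1 KI group, and the WT group held 6.03%, 8.71% and 6.796%, without overlap. This gave a two-sided exact permutation p of 0.1, again the smallest possible, and 0.583 after adjustment over the 7 shares. *DCN* held 51.7%, 51.1% and 62.3% in the UCP1 KI group against 45.0%, 44.7% and 52.6% in the WT group, and these overlapped (exact permutation p = 0.3). *LUM* kept within 13.8% to 17.6% in all pigs, and the groups overlapped (exact permutation p = 0.9). *BGN* varied widely within the UCP1 KI group, at 16.0%, 11.6% and 6.55%. Its groups overlapped too (exact permutation p = 0.5).

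**Figure D3:**
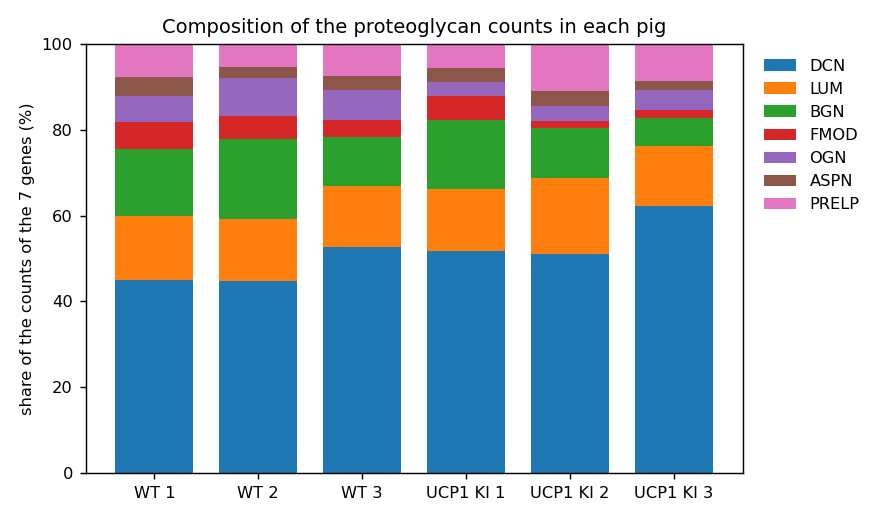
Stacked bars of the share (%) that each of the 7 proteoglycan genes took of their summed counts, 1 bar per pig. *DCN* is the largest share in every pig at 44.7% to 62.3%, and the *OGN* share is 3.39% to 4.80% in the UCP1 KI pigs and 6.03% to 8.71% in the WT pigs.

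*PDGFRA* (chr8:40966568-41021440), the receptor that marks fibroblasts and fibro-adipogenic progenitors, was at 8.89, 12.5 and 9.56 CPM in UCP1 KI pigs and 6.89, 16.3 and 9.54 CPM in WT pigs. The UCP1 KI pigs lay inside the range of the WT pigs. Its log2 fold change of -0.08 had a standard error of 0.36 and a 95% interval of -0.91 to 0.74 (unadjusted p = 0.826 from edgeR). It was 0.25 with library size only, 0.33 without WT replicate 2 and 0.02 without UCP1 KI replicate 1.

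*PDGFRL* (chr17:5278872-5328859), which encodes a protein similar to the ligand-binding part of PDGF receptors, was at 5.79, 4.09 and 9.30 CPM in UCP1 KI pigs and 12.24, 11.5 and 11.7 CPM in WT pigs. The WT pigs were nearly equal, and every UCP1 KI pig was below them. *PDGFRL* changed by -0.88 on the log2 scale (standard error 0.33, unadjusted p = 0.0298 and adjusted p = 0.583 from edgeR). With a pig left out, *PDGFRL* stayed past the limits only without UCP1 KI replicate 3, where it was -1.25, and the other 5 fits gave -0.91 to -0.66.

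*FAP* (chr15:68831281-68902416), the fibroblast activation protein, a surface serine protease of activated fibroblasts, was at 4.04, 2.75 and 4.87 CPM in UCP1 KI pigs and 8.24, 8.62 and 5.01 CPM in WT pigs. The groups were separate, with UCP1 KI replicate 3 just below WT replicate 3. *FAP* changed by -0.91 on the log2 scale (standard error 0.34, unadjusted p = 0.0305 and adjusted p = 0.583 from edgeR). It passed without UCP1 KI replicate 3 or WT replicate 3, and lay between -0.93 and -0.72 in the 4 fits in which it did not. The ratio of *FAP* to *PDGFRA* counts within a pig, on the log2 scale, averaged -0.53 ± 0.68 (SD, n = 3) in the WT group against -1.43 ± 0.65 (SD, n = 3) in the UCP1 KI group. The groups did not overlap, although UCP1 KI replicate 3 at -0.97 lay close to WT replicate 3 at -0.93 (exact permutation p = 0.1, and 0.367 adjusted over 11 ratios). For *PDGFRL* to *PDGFRA* the groups overlapped, with a difference of -0.96 (exact permutation p = 0.2), and for *PDGFRA* to *DCN* the difference was 0.39, also with overlap (exact permutation p = 0.5). Of the 11 ratios computed, 8 overlapped between the groups, and the adjusted p of these 8 ranged from 0.412 to 0.7.

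**Figure D4:**
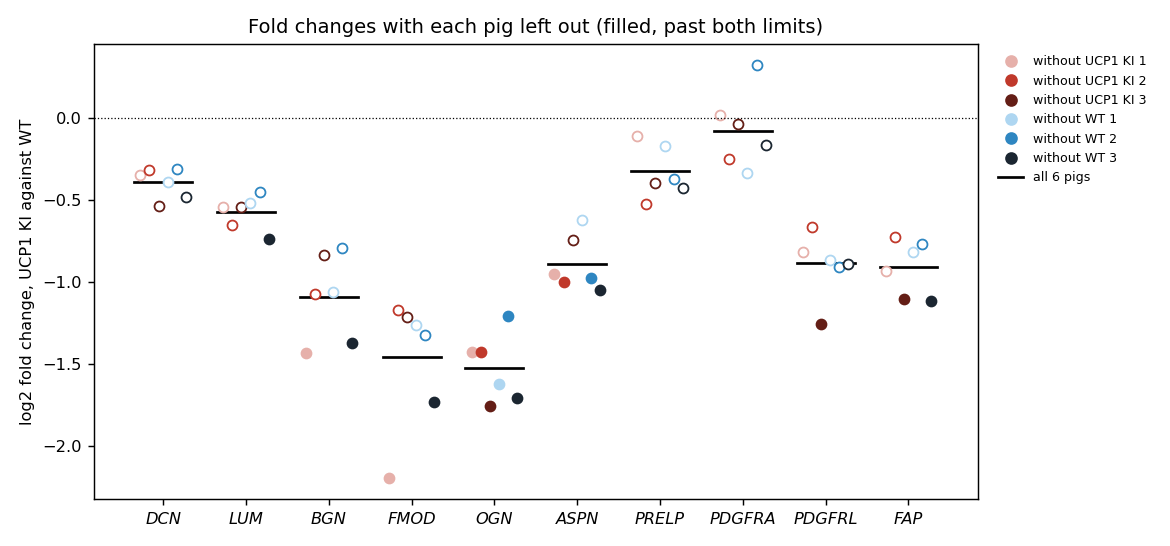
Log2 fold change of each gene (y axis) with all 6 pigs (black line) and after removal of single pigs (circles, filled where the gene passes both limits). *OGN* is filled in all 6 fits, and *FMOD* moves from -1.46 to -2.19 without UCP1 KI replicate 1, while *PDGFRA* lies on both sides of 0.

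Averaged over the genes, the deviation of the log2 value from the mean of all pigs was -0.30, -0.45 and -0.35 in UCP1 KI replicates 1 to 3 and 0.47, 0.61 and 0.03 in WT replicates 1 to 3. WT replicate 2 was the highest pig for 6 genes and WT replicate 1 for 4. WT replicate 3 was the WT pig closest to the UCP1 KI pigs. The lowest pig was UCP1 KI replicate 2 for 5 genes and UCP1 KI replicate 3 for 3 genes. Without scaling by TMM factors the median over all genes moved to 0.24 on the log2 scale and that of the 10 genes to -0.64. The difference between them was -0.87 with TMM factors and -0.88 with library size only.

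Of 9 tested genes of collagens that small leucine-rich proteoglycans bind, 5 were lower past both limits and all 9 log2 fold changes were negative, with TMM factors and with library size only, with a median of -0.90 under TMM factors. *COL5A2* was on both sides of 0 with single pigs left out (-0.66 to 0.59). *COL1A1*, a chain of type I collagen, was at 44.0, 29.5 and 35.8 CPM in UCP1 KI pigs and 115, 180 and 101 CPM in WT pigs. The groups were far apart, and its log2 fold change was -1.86 (unadjusted p = 0.000361 from edgeR). *COL1A2*, *COL3A1*, *COL5A1* and *COL6A1* had log2 fold changes of -1.70, -1.57, -0.87 and -0.78. *COL1A1* and *COL1A2* passed with each pig left out, *COL3A1* was lost without WT replicate 2, *COL5A1* was lost in 3 such fits and *COL6A1* in 4, and the last 2 were also lost with library size only. Within a pig, the log2 ratio of *COL1A1* to *DCN* counts averaged 0.09 ± 0.29 (SD, n = 3) in the WT group against -1.35 ± 0.33 (SD, n = 3) in the UCP1 KI group, without overlap (exact permutation p = 0.1, and 0.367 adjusted over 11 ratios). The ratio of *COL3A1* to *DCN* averaged 1.74 ± 0.28 (SD, n = 3) in the WT group against 0.37 ± 0.94 (SD, n = 3), also without overlap.

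Of 22 further fibroblast markers tested, 5 were lower past both limits, 1 was higher, and the median log2 fold change was -0.41. The lower genes were *CLEC3B* (-1.15), *SMOC2* (-1.36), *FSTL1* (-0.999), *CXCL14* (-0.97) and *MEOX1* (-0.97), which encode the secreted proteins tetranectin, SMOC2, follistatin-like 1 and CXCL14 and a homeobox factor. Without WT replicate 2, *CLEC3B* (-0.94), *SMOC2* (-1.14) and *CXCL14* (-0.93) did not pass. *CLEC3B* and *SMOC2* passed in the other fits that left out a pig. *CXCL14* was also lost after removal of UCP1 KI replicates 1 or 2 or of WT replicate 1. *FSTL1* and *MEOX1* were each lost after removal of UCP1 KI replicates 2 or 3 or of WT replicate 1. *PDPN*, which encodes podoplanin, a membrane protein of lymphatic vessels and of some fibroblasts, was higher, at 28.1, 47.1 and 26.1 CPM in UCP1 KI pigs and 25.0, 13.3 and 14.7 CPM in WT pigs. This change, 0.94 on the log2 scale, fell short of the limits without UCP1 KI replicate 2, at 0.61, and after removal of WT replicate 2 or of WT replicate 3. Of the 22 log2 fold changes 18 were negative. The 16 markers that did not pass lay between -0.85 (*GLI1*) and 1.36 (*LOX*, which was -0.99 without UCP1 KI replicate 3), among them *CD34* at -0.83, *IGFBP6* at -0.78, *VIM* at -0.68, *MGP* at -0.11 and *DPT* at 0.17. Single pigs moved these values. *CD34* was -0.25 without WT replicate 1, *VIM* was -0.30 without WT replicate 2, and both passed the limits without WT replicate 3 (-1.10 and -0.92). *IGFBP6* passed without UCP1 KI replicate 1 (-1.22), and *GLI1* was -0.47 without WT replicate 1. *MGP* turned positive with library size only (0.21) and after removal of UCP1 KI replicate 3 (0.10) or of WT replicate 2 (0.27), and *DPT* turned negative after removal of UCP1 KI replicate 2 (-0.03) or of WT replicate 3 (-0.07). With library size only, *CLEC3B* was lower and *PDPN* higher past both limits, the other 20 did not pass, and the median was -0.18. Removal of UCP1 KI replicate 2 or of WT replicate 2 left 2 markers past the limits, and that of WT replicate 1 left 3.

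**Figure D5:**
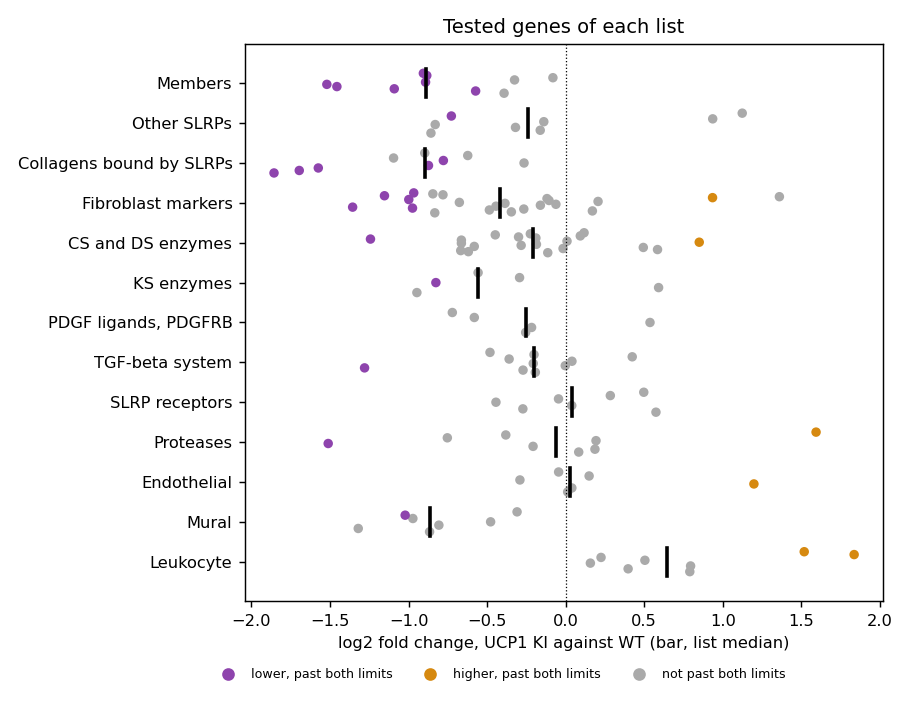
Log2 fold change of each tested gene (points) in the 10 genes and 12 lists of related or cell type genes, with black bars at list medians; purple and orange mark genes lower and higher past both limits. The medians of the 10 genes and of the collagens lie at -0.89 and -0.90, and the median of all genes tested is -0.02. SLRP, small leucine-rich proteoglycan; CS, DS and KS, chondroitin, dermatan and keratan sulphate.

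The sugar chains of these proteoglycans are built by a set of transferases, epimerases and sulphotransferases. Of 20 tested genes of chondroitin and dermatan sulphate synthesis, 1 was higher and 1 lower past both limits, a share close to the 8.19% of all genes tested, with a median of -0.21 that was 0.00 with library size only. *CHPF*, a chondroitin polymerising factor, was at 9.99, 9.93 and 12.2 CPM in UCP1 KI pigs and 5.79, 5.19 and 6.84 CPM in WT pigs. The groups were separate, and its log2 fold change of 0.85 (unadjusted p = 0.00944 from edgeR) was past the limits with each pig left out. *DSEL*, a dermatan sulphate epimerase-like gene, was at 2.33, 2.83 and 2.22 CPM and at 8.96, 3.91 and 4.61 CPM, a log2 fold change of -1.24 (unadjusted p = 0.0127 from edgeR) that was -0.79 without WT replicate 1 and did not pass with library size only. *B3GAT3*, the most abundant of these enzymes, which completes the linkage to the core protein, had a log2 fold change of -0.02, and 0.23 with library size only. Of 5 tested genes of keratan sulphate synthesis, *B3GNT2*, which extends lactosamine chains, was lower past both limits at -0.83 and was lost in 5 of the 6 fits that left out a pig. *B4GALT1*, the most abundant galactosyltransferase of the list, was at -0.29, and was -0.05 without WT replicate 1, -0.50 without WT replicate 3 and -0.06 with library size only.

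Of the PDGF ligands and *PDGFRB*, the beta receptor of pericytes and fibroblasts, 0 of 5 passed both limits in edgeR (0 at an unadjusted p under 0.05), and DESeq2 called 1, *PDGFRB*. *PDGFRB* was at 55.3, 47.3 and 33.5 CPM in UCP1 KI pigs and 97.0, 76.9 and 50.4 CPM in WT pigs. The groups overlapped in UCP1 KI replicate 1 and WT replicate 3. Its log2 fold change of -0.72 had an unadjusted p of 0.0538 from edgeR, and it passed with the replicate number as a block and without WT replicate 3.

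TGF-beta signalling genes, whose ligands decorin, biglycan and asporin can bind, had 1 of 10 tested genes past both limits and a median of -0.20 that was 0.02 with library size only. *TGFB3*, a TGF-beta ligand, was at 3.88, 2.83 and 2.09 CPM in UCP1 KI pigs and 7.50, 10.5 and 3.37 CPM in WT pigs, with overlap at UCP1 KI replicate 1. *TGFB3* changed by -1.28 on the log2 scale and was lost in 4 of the 6 fits that left out a pig, among them that without WT replicate 2. *LTBP4*, a latent TGF-beta binding protein and the most abundant gene of the list, was at -0.48 and did not pass, and single pigs left out gave -0.67 to -0.25, the last without WT replicate 1.

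Among cell receptors of the proteoglycans (toll-like receptors, *MET*, *EGFR* and others), 0 of 7 tested genes passed both limits in edgeR (0 at an unadjusted p under 0.05) and 0 in DESeq2. *EGFR* was at -0.44 and *KDR* at 0.50, both with overlapping groups. *EGFR* was -0.91 and past both limits without UCP1 KI replicate 3, and was -0.20 with library size only, while *KDR* was -0.003 without UCP1 KI replicate 2. Of 8 tested proteases and homologues of *FAP*, *ADAMTS1*, a metalloprotease that cleaves proteoglycans, was lower and *PREP*, a cytosolic prolyl peptidase of the same clan as *FAP*, was higher past both limits. *ADAMTS1* was at 27.5, 21.6 and 17.1 CPM in UCP1 KI pigs and 44.4, 97.4 and 46.8 CPM in WT pigs. The groups were separate, and *ADAMTS1*, at -1.51 on the log2 scale, passed with each pig left out. *PREP* was at 36.8, 50.04 and 45.6 CPM in UCP1 KI pigs and 25.1, 4.35 and 14.3 CPM in WT pigs, opposite in direction to *FAP*. The change of 1.59 on the log2 scale was lost without UCP1 KI replicate 2 or WT replicate 3. *DPP4*, the closest relative of *FAP*, was at -0.38 and did not pass, and it was 0.68 without WT replicate 1.

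Markers of other cells of the muscle were measured beside these genes. Mural cell markers, of pericytes and vascular smooth muscle, had a median of -0.87 with all 7 log2 fold changes negative and 1 past both limits (*NOTCH3*, at -1.02, lost after removal of UCP1 KI replicates 1 or 2 or of WT replicate 1, the last at -0.43, and also with library size only, which left 0 of the 7, and under the replicate block). Their summed level was 304 to 431 CPM in UCP1 KI pigs and 392.5 to 810 CPM in WT pigs, and their median was -0.44 without WT replicate 2. Leukocyte markers had a median of 0.65, and 1.09 without WT replicate 2, with all 8 positive and 2 higher past both limits (3 with library size only), *CD3E* at 1.84 and *ITGAM* at 1.52, and their summed levels overlapped, at 29.0 to 89.6 CPM and 27.5 to 53.0 CPM. *CD3E* was lost without UCP1 KI replicate 2 (0.95) or any of the WT pigs, and *ITGAM* after removal of UCP1 KI replicates 1 or 2 or of WT replicate 3. Of 6 endothelial markers tested, *TEK* passed both limits, at 1.20, and the median was 0.03, and 0.25 with library size only. The tendon markers *SCX*, *TNMD*, *MKX* and *COMP* were too low to be tested, and 0 of 3 tested tendon markers passed in edgeR (0 at an unadjusted p under 0.05) or DESeq2. Adipocyte markers summed to 135 to 161 CPM in UCP1 KI pigs and 99.9 to 315 CPM in WT pigs, with the highest level in WT replicate 2. Their median was -1.13, and -0.03 without WT replicate 2, and 0 of 5 passed in edgeR (0 at an unadjusted p under 0.05) or DESeq2. The 4 muscle fibre markers tested had a median of -0.46, and -0.22 with library size only, and 0 passed in edgeR (0 at an unadjusted p under 0.05) or DESeq2. The part of these cell types in the differences described was not tested.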

How the data were processed

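Libraries from the back muscle of 3 WT and 3 UCP1 KI pigs were used. The authors trimmed the paired-end reads with Trimmomatic 0.36, mapped them with HISAT2 2.0 and ran StringTie 1.3.3b, and they deposited raw counts of reads per gene without normalization. The program that counted the reads, its strand setting and the annotation release are not given in the sources used here, so reads of overlapping or antisense genes could not be told apart. All 6 count columns were used (0 left unused), and the replicates differed by far more than sampling noise.

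Counts were tested in R 4.3.3 with edgeR 4.0.16 (filterByExpr, TMM factors, quasi-likelihood F test, two-sided, genotype as the only term), with p values adjusted over all 13402 genes tested. The limits were p below 0.05 and a log2 fold change of more than 0.5 in size, as in the study. The study does not say whether its p was adjusted, and p was taken before adjustment here. CPM values use TMM-scaled totals, and the pseudocount on the log2 scale was 1. A count of 3 corresponded to 0.0795 to 0.110 CPM. The labels do not say whether the pigs were littermates. The edgeR p values set the difference between genotypes against the spread between these pigs, with a spread estimate that also draws on other genes. Exact permutation tests enumerated all assignments of the 6 pigs. The fit was tested on simulated data. Alternatives were DESeq2 1.42.0, other scaling factors, other filters, the replicate number as a block and each pig left out.

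The genes and lists were chosen with earlier results of these data known. Named genes were the 10 genes, in each related list the gene with the smallest p and the most abundant one, genes past both limits in lists of at most 12 tested genes, and the 5 genes nearest in profile. The fibroblast, cell type and neighbouring genes named beyond this, *DSEL* and *DPP4* were chosen after their values were seen. Symbols came from a table that named 14864 of the identifiers. No sequences were used here.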

Additional observations from a re-analysis of the deposited data

How the results depend on the processing

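The median log2 fold change of the 10 genes stayed negative in all 12 alternative fits. It was -0.64 with library size only, where 82.7% of the genes past both limits were higher in UCP1 KI pigs in place of 46.9%. The number of the 10 genes past both limits was 7 with median-of-ratios factors, DESeq2 or a minimum of 10 counts in every pig, 6 with all genes with any count, 5 with the replicate number as a block, 2 with library size only (*FMOD* and *OGN*), and 1 to 6 with each pig left out. *LUM* and *FAP* were the genes lost under the replicate block, at -0.55 and -0.91. Same-numbered pigs did not all deviate together (correlations of 0.00, 0.09 and 0.28 over genes), so the number was taken as a name alone. At an adjusted p under 0.05, edgeR with TMM factors and the filter on low counts gave 0 of the 10 genes, 0 of the related matrix and signal genes and 0 of all genes (1100 at an unadjusted p under 0.05). It gave 1 of all genes with library size only and 1 with all genes with any count, and DESeq2 gave 127. All genes past both limits numbered 1097, and 678 to 1541 with a pig left out. The related matrix and signal genes past them numbered 12, and 7 to 15 with a pig left out, the fewest without WT replicate 1 or WT replicate 2. *PDGFRA* turned positive with library size only (0.25) and lay between -0.34 and 0.33 with a pig left out. Of the 120 single-gene values over these fits, 85 kept their direction and side of the limits, 32 kept the direction and lost the call, and 3 turned in sign. *DCN*, *PRELP* and *PDGFRA* passed in none of the fits, so their values had no call to lose. Where these values kept their sign, they count among the 85. No fit at another depth was run. Counting error at the lowest count of any of the 10 genes was 10.1% of the value.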

Other observations

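The genes whose profile over the 6 pigs was most like the mean profile of the 10 genes were sought among 10004 genes with a symbol and a mean of at least 1 CPM, outside the lists. Likeness was the root mean square difference of centred log2(CPM + 1) values over the 6 pigs. The nearest were *PROS1* (protein S, a plasma anticoagulant) at 0.07, *ORC4* (a subunit of the origin recognition complex) at 0.08, *TBC1D30* at 0.09, *COL27A1* (a fibrillar collagen) at 0.10 and *TBC1D12* at 0.11. *PROS1* was at 5.79, 4.96 and 5.75 CPM in UCP1 KI pigs and 9.32, 11.8 and 7.14 CPM in WT pigs. *TBC1D30* and *COL27A1* averaged 0.86 and 0.75 CPM in UCP1 KI pigs against 2.24 and 1.91 CPM in WT pigs. Their fitted log2 fold changes were -1.37 and -1.34. At such levels the pseudocount of 1 shrinks the centred values, so the likeness of these 2 genes depends in part on it. Among the 10 genes themselves, *LUM* lay nearest to their mean profile at 0.15, and *FMOD* and *PDGFRA* farthest from it at 0.55 and 0.51.

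Satellite cell markers, of the muscle stem cells, and Schwann cell markers had medians of -0.08 and -0.20, which turned positive with library size only, at 0.16 and 0.08. Of their 6 and 5 tested genes 0 passed both limits in edgeR (0 at an unadjusted p under 0.05) or DESeq2. Among the 3 tendon markers tested, the most abundant varied widely within groups, with *CILP*, a cartilage matrix protein, at 61.7, 83.9 and 331 CPM in UCP1 KI pigs and 59.0, 55.3 and 208 CPM in WT pigs. *CILP* did not pass, at 0.57 on the log2 scale, a value that was -0.55 without UCP1 KI replicate 3.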
